A study of Mus musculus with 6 samples.

Results

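Ribosomal protein pseudogenes are copies of ribosomal protein genes elsewhere in the genome. Here they are the genes of a pseudogene biotype whose symbol is that of a ribosomal protein gene followed by -ps, with at least 60 counts summed over the 6 libraries. The table held 163 such genes among 31613, and 60 reached that minimum. They were selected on readout values: the group was picked because 1 of them, Rpl34-ps1, had the smallest p of all genes between the genotypes, and the minimum used the counts themselves. Values of the genotype comparison for these genes are therefore given as a description.

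The cells sequenced were mDPCs, dental papilla cells of the mouse and thus tooth mesenchyme, taken at postnatal day 6 from the first molars of the lower jaw. The 3 control libraries are labelled wild type, while the methods give Setd2fl/fl mice. The 3 Dmp1-Cre;Setd2fl/fl libraries came from mice in which the Dmp1 promoter drives Cre, so that floxed Setd2, which encodes the enzyme that trimethylates H3K36, is deleted in the cells that express Dmp1. For each library, RNA of 3 biological replicates was mixed. The study's list of mice holds fewer animals per genotype than separate mice in every pool would need, so p-values measure the spread between these pools, which may share animals. Because RNA was measured in bulk, fewer cells of a type and less RNA per cell cannot be told apart.

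A processed pseudogene arises when a messenger RNA is copied back into DNA and inserted at a new site, so it lacks introns and usually a promoter of its own. Ribosomal protein messenger RNAs are short and very abundant in growing cells, and they have left more such copies in mammalian genomes than most genes. Because a copy can differ from its parent by only a few bases, a short read from one can fit the other, and counts on a pseudogene need not come from transcription at its site.

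The 60 pseudogenes comprised 34 copies of large-subunit (Rpl) genes and 26 of small-subunit (Rps) genes. By symbol they were assigned to 36 protein-coding parents, all of them in the table, and they lay on 19 chromosomes. No other parent was compared. The annotation calls 56 processed pseudogenes and 4 transcribed processed pseudogenes. A further 6 genes with such symbols are annotated as protein-coding and were not included. Together the 60 took 0.128% of all counts and their parents 2.28%. The 3 with the most counts were Rps10-ps2, Rpl34-ps1 and Rpl14-ps1, and 49 of 60 had a mean of the group means of at least 1 CPM (counts scaled to library size). Just inside the minimum lay Rps12-ps24, Rps4x-ps and Rps18-ps3, with 64, 74 and 75 summed counts. Just outside lay Rpl7-ps7, Rpl10-ps6 and Rpl35a-ps3, with 58, 57 and 55.

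Library totals ran from 18557647 to 19210750 counts. Setd2 ran from 92.0 to 98.0 CPM in control and from 96.0 to 102 CPM in Dmp1-Cre;Setd2fl/fl libraries, and whole-gene counts do not check the deletion of part of a gene. The 6 dental papilla mesenchyme markers summed to 4494 to 5407 CPM in control and 4342 to 5122 CPM in Dmp1-Cre;Setd2fl/fl libraries. Of the 6, 1 was lower in Dmp1-Cre;Setd2fl/fl at the study's thresholds, Lhx8, with a log2 fold change of -0.62, and 0 were higher. Replicate 3 stood apart in both groups: 6 dental epithelium markers summed to 27670 and 45740 CPM there, against 1993 to 6567 CPM in the other 4 libraries. The 6 odontoblast markers, all of them lower in Dmp1-Cre;Setd2fl/fl, summed to 71490 to 81340 CPM in control libraries, and to 5820, 3928 and 36570 CPM in Dmp1-Cre;Setd2fl/fl replicates 1, 2 and 3. Of 5 neutrophil markers, 4 were tested and 2 were higher in Dmp1-Cre;Setd2fl/fl, with sums of 2.89 to 18.9 CPM in control and of 64.3, 130 and 3.75 CPM in Dmp1-Cre;Setd2fl/fl replicates 1, 2 and 3. None of the dental epithelium, endothelium, macrophage or erythroid markers passed the study's thresholds (0 in each list), and no marker in these lists was at 0 in all libraries. The part of these cell types in the differences between genotypes was not tested.

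Copies of 3 parents carry the results, and stretches of their coding sequences show how little separates a copy from its parent. Sequences are those of the GENCODE vM39 transcripts (GRCm39), 5′ to 3′ on the coding strand, and positions count from 1 at the A of the parent's start codon. Capitals in a copy mark bases that differ from the parent, and capitals in the parent mark positions at which any copy shown differs. The first set, coding positions 115 to 335, shows Rpl34, a large-subunit protein, with Rpl34-ps1 and with 2 further copies, Gm10154 and Gm4705, whose symbols keep them out of the 60 and which were chosen after their values were seen.
Rpl34: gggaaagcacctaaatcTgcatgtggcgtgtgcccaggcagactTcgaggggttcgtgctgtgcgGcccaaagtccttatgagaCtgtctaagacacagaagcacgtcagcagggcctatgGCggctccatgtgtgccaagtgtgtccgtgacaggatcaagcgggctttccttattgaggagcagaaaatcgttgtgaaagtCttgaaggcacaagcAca
Rpl34-ps1: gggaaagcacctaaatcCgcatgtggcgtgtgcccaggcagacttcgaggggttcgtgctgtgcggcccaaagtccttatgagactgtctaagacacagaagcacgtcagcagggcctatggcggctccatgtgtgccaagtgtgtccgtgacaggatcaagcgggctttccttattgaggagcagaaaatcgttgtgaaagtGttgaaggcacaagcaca
Gm10154: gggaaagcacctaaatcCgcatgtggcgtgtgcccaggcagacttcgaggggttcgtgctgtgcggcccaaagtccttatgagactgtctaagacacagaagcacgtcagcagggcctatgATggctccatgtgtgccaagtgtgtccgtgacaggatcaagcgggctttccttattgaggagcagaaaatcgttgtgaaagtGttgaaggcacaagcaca
Gm4705: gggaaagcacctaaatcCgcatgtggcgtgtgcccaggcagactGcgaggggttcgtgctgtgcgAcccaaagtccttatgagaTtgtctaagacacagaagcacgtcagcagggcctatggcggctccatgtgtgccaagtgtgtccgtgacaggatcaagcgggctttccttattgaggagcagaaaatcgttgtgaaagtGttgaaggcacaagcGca

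Rpl34-ps1 covers the whole coding sequence of 354 bases with 2 differences, T132C and C318G. Gm10154 and Gm4705 carry both of these and differ from Rpl34 at 4 and 6 positions in all. Of the 205 stretches of 150 bases, the read length, in Rpl34-ps1, 36 (17.6%) occur unchanged in the Rpl34 transcript. Most reads from it would thus carry at least 1 base that differs from Rpl34. The stretches were compared with Rpl34 alone. T132C and C318G do not set Rpl34-ps1 apart from Gm10154 and Gm4705, which carry both.

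The second set, coding positions 371 to 453, shows Rps13, a small-subunit protein, with a copy that differs and a copy that does not. These and the Rps15a copies were chosen after their values were seen.
Rps13: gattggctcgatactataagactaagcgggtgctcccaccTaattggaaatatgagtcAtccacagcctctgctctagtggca
Rps13-ps1: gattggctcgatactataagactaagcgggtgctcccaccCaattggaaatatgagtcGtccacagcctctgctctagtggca
Rps13-ps2: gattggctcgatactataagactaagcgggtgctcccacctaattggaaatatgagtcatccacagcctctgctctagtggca

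Rps13-ps1 differs from Rps13 at T411C and A429G, and Rps13-ps2 differs at no aligned base. The third set, coding positions 90 to 210, shows Rps15a, another small-subunit protein, with the 4 copies among the 60. Rps15a-ps7 lacks 1 base of this stretch.
Rps15a: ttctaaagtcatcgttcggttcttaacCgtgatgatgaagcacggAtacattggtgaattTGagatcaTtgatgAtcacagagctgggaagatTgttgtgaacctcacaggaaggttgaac
Rps15a-ps3: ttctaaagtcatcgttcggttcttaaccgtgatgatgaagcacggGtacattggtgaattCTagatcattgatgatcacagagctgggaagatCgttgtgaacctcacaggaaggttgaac
Rps15a-ps5: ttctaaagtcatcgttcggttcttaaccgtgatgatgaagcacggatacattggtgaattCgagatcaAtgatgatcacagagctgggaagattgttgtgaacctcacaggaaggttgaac
Rps15a-ps6: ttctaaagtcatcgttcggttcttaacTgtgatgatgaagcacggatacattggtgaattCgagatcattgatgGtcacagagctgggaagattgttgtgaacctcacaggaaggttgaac
Rps15a-ps7: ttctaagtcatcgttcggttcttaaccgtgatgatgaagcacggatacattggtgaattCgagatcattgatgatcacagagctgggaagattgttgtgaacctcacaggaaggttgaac

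T150C is the substitution that all 4 Rps15a copies share. Across the 60 pseudogenes the median identity to the parent transcript was 99.4%, with a range from 90.3% to 100%, and 40 had at least 99%. The median number of differences within the coding sequence was 3, and 10 copies had no mismatch over the aligned bases. In 14 copies no stretch of 150 bases occurred unchanged in the parent, and in 26 at least 50% of stretches did. Whether reads that fit both places were assigned or left out is set by the aligner and the minimum alignment quality of the counting. The counts below carry the outcome.

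Rpl34-ps1 (ENSMUSG00000068396, chromosome 6 from 71124610 to 71124963, plus strand, in positions that match GRCm38) lies in no other gene's span in the table. It had 1271, 1261 and 875 counts in the control libraries and 4628, 3612 and 4126 in the Dmp1-Cre;Setd2fl/fl libraries, replicates 1 to 3. All 3 Dmp1-Cre;Setd2fl/fl libraries lay above all 3 controls, and the groups did not come near each other. The mean was 61.1 ± 10.0 CPM (SD, n = 3) in control and 212 ± 18.1 CPM in Dmp1-Cre;Setd2fl/fl libraries. The log2 fold change was 1.80 with an SE of 0.15, and this comparison is the one it was chosen by. Its adjusted p over all genes was 0.12 with edgeR, and 0.00476 with the replicate block, which pairs libraries by number. This pairing was inferred, as described with the processing of the data, and is not a known design.

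Rpl34 itself (chromosome 3 from 130726831 to 130730398, minus strand) had 6641, 6763 and 4915 counts in control and 5371, 9039 and 3120 counts in Dmp1-Cre;Setd2fl/fl libraries. The groups overlapped, with the highest and the lowest library both in Dmp1-Cre;Setd2fl/fl. The log2 fold change of Rpl34 was -0.12 (SE 0.36), the second lowest of the 79 cytosolic ribosomal protein genes tested, whose median was 0.35. Without replicate 3 of both groups it was 0.06, without Dmp1-Cre;Setd2fl/fl replicate 3 alone it was 0.16, and without Dmp1-Cre;Setd2fl/fl replicate 2 it was -0.63. Gm10154 had 190, 203 and 185 counts in control and 203, 232 and 118 in Dmp1-Cre;Setd2fl/fl libraries, a log2 fold change of -0.14 (SE 0.25). Gm4705 had 74, 72 and 60 counts in control and 66, 87 and 50 in Dmp1-Cre;Setd2fl/fl libraries, a log2 fold change of -0.08 (SE 0.26). Neither copy, though both share the 2 differences of Rpl34-ps1, had groups that stood apart.

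**Figure D1:**
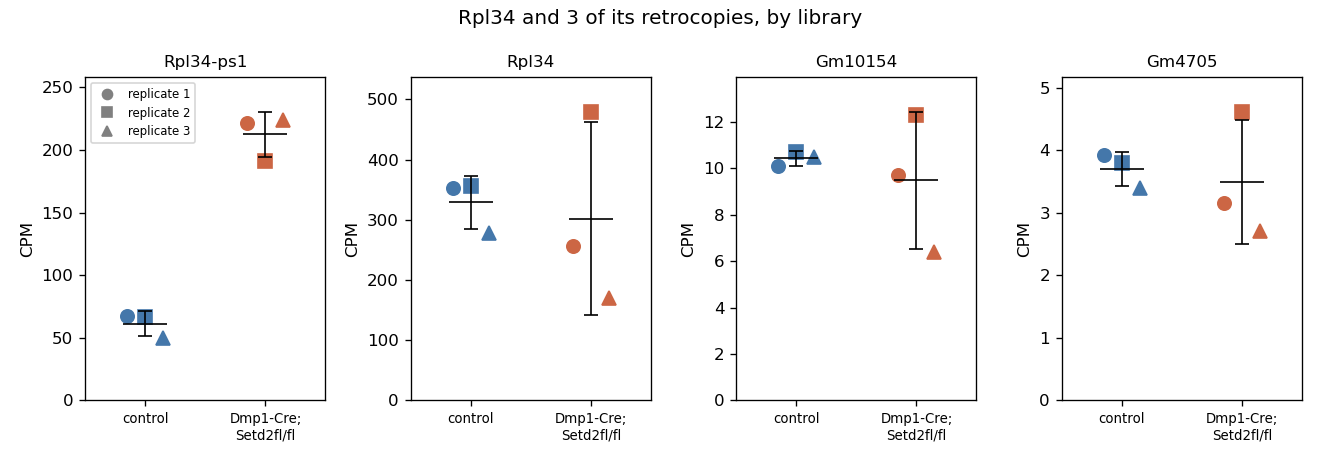
Level in CPM of Rpl34-ps1, its parent Rpl34 and the copies Gm10154 and Gm4705 in each library, with the mean and SD of 3 libraries per genotype as bars and the replicate number as the symbol. Rpl34-ps1 ran from 49.6 to 67.4 CPM in control and from 192 to 224 CPM in Dmp1-Cre;Setd2fl/fl libraries, while the groups of the other 3 genes overlapped.

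Of the counts on Rpl34 and Rpl34-ps1 together, the pseudogene took 16.1%, 15.7% and 15.1% in control replicates 1, 2 and 3, with 95% Wilson intervals from 14.2% to 16.9% over the 3 libraries. It took 46.3% (45.3 to 47.3%), 28.6% (27.8 to 29.3%) and 56.9% (55.8 to 58.1%) in Dmp1-Cre;Setd2fl/fl replicates 1, 2 and 3. The control libraries lay within 1 narrow band, and the Dmp1-Cre;Setd2fl/fl libraries were all higher and differed widely among themselves. The library with the lowest share, replicate 2, had the most Rpl34, and the one with the highest share, replicate 3, had the least. Rpl34 is part of the total, so the share falls where Rpl34 is higher and Rpl34-ps1 much the same. In Dmp1-Cre;Setd2fl/fl replicates 1, 2 and 3, Rpl34-ps1 was at 221, 192 and 224 CPM and Rpl34 at 257, 479 and 169 CPM. The sum of both genes was 390 ± 53.6 CPM (SD, n = 3) in control and 514 ± 142 CPM in Dmp1-Cre;Setd2fl/fl libraries, a ratio of 1.32, and the sum of the 79 cytosolic ribosomal protein genes had a ratio of 1.27. Whether reads moved between the copies was not tested.

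The log2 ratio of a pseudogene to its parent does not depend on how libraries are scaled. For Rpl34-ps1 it was 2.05 higher in Dmp1-Cre;Setd2fl/fl libraries, and the next highest of the 60, that of Rps10-ps1, was 0.63 higher. Over the 60 the median difference was 0.05, with a lowest value of -0.93. The ratios of the groups did not overlap for 4 of the 60 pseudogenes, Rpl34-ps1, Rpl14-ps1, Rpl21-ps10 and Rps12-ps24. Of these, Rpl14-ps1 (-0.14) and Rps12-ps24 (-0.76, with 64 summed counts) were lower relative to their parents. A ratio to a parent exists for these copies only, so the count has no share over all genes beside it and nothing is read from it. By the median difference, most pseudogenes apart from Rpl34-ps1 differed between genotypes about as much as their parents did.

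Past the study's thresholds, 4 of the 59 pseudogenes tested (6.78%) were higher in Dmp1-Cre;Setd2fl/fl libraries and 0 were lower, while over all 16519 genes 1.1% were higher and 2.71% lower. Rps12-ps24 did not pass the filter on low counts. Since the contrast chose the group, nothing is read from the difference between these shares. No gene had an adjusted p under 0.05 with edgeR (0 genes), 1252 genes and 10 of the pseudogenes had an unadjusted p under 0.05, and DESeq2 gave Rpl34-ps1 an adjusted p of 2.055e-19. With the replicate block, 12 pseudogenes (20.3%) were higher, against 2.05% of all genes, and Rpl34-ps1 was the 1 pseudogene with an adjusted p under 0.05.

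Besides Rpl34-ps1 the 4 were Rpl21-ps10, Rps2-ps10 and Rpl17-ps5, with 120, 807 and 513 summed counts. Rpl21-ps10, a copy of a large-subunit gene, had 17, 15 and 8 counts in control and 25, 34 and 21 in Dmp1-Cre;Setd2fl/fl libraries, a log2 fold change of 0.94 (SE 0.37). Rpl17-ps5, also of the large subunit, had 65, 61 and 72 counts in control and 88, 120 and 107 in Dmp1-Cre;Setd2fl/fl libraries, a log2 fold change of 0.61 (SE 0.24). Rps2-ps10, a copy of a small-subunit gene, had 82, 93 and 128 counts in control and 159, 169 and 176 in Dmp1-Cre;Setd2fl/fl libraries, a log2 fold change of 0.66 (SE 0.24). In each the groups did not overlap. Each lost its call when single libraries were left out: Rps2-ps10 was at 0.52, 0.58, 0.64 and 0.59 without control replicate 1, control replicate 2, Dmp1-Cre;Setd2fl/fl replicate 2 and Dmp1-Cre;Setd2fl/fl replicate 3, with an unadjusted p of 0.104, 0.102, 0.0676 and 0.058. Rpl17-ps5 lost its call without the same 4 libraries, at 0.48 to 0.58. Rpl21-ps10 lost it without control replicate 2, control replicate 3, Dmp1-Cre;Setd2fl/fl replicate 1 or Dmp1-Cre;Setd2fl/fl replicate 2, at 0.70 to 1.04. It also lost it with DESeq2 (0.95, unadjusted p of 0.0634), and Rpl17-ps5 lost its call with voom and quality weights (0.43, below the fold threshold). With counts taken without regard to strand, the lincRNA 6030443J06Rik on the strand opposite Rpl17-ps5 (log2 fold change -0.20, SE 0.34) cannot be told apart from it where they overlap. Pde6a opposite Rps2-ps10 was at 0.214 and 0.189 CPM and Gm43821, on the strand of Rpl21-ps10, at 0 and 0.0513 CPM in control and Dmp1-Cre;Setd2fl/fl libraries.

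Most of the group had small positive differences. The median log2 fold change of the 59 pseudogenes was 0.42, and it was also 0.42 without Rpl34-ps1 and 0.53 without replicate 3 of both groups. The median over all genes was 0.02. The difference was above 0 for 56 of 59 pseudogenes, the exceptions being Rps27a-ps1, Rpl13-ps6 and Rps18-ps3. The large-subunit and small-subunit copies had medians of 0.42 and 0.41. All 3 Dmp1-Cre;Setd2fl/fl libraries lay above all 3 controls for 13 of 59 (22.0%) and below for 0, against 7.26% and 7.98% of all genes.

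Their parents, which the rule did not use, had a median log2 fold change of 0.37, and 34 of 36 were above 0, but 0 of 36 passed the study's thresholds in either direction. The median was 0.17 without Dmp1-Cre;Setd2fl/fl replicate 2 and 0.47 without replicate 3 of both groups. All 3 Dmp1-Cre;Setd2fl/fl libraries lay above all 3 controls for 16 of the 36 (44.4%), against 7.26% of all genes. Rpl14, a large-subunit protein, had the highest of these values, 0.54 (SE 0.18), with 7446, 7608 and 7969 counts in control and 10851, 14400 and 9805 in Dmp1-Cre;Setd2fl/fl libraries. It was at 0.34 without Dmp1-Cre;Setd2fl/fl replicate 2. Of 18 translation factors and other transcripts with a terminal oligopyrimidine tract, which share translational control with ribosomal proteins, 1 was higher and 0 lower, with a median of 0.33. Of 22 genes of ribosome biogenesis and RNA polymerase I, 1 was higher and 0 lower. Their median was 0.20, and 0.32 without replicate 3 of both groups. The shares called higher in these lists, 5.56% and 4.55%, rest on 1 gene each and stand beside 1.1% of all genes.

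Other pseudogenes were closer to all genes. The 74 tested pseudogenes with -ps in the symbol that are not of ribosomal proteins had a median log2 fold change of 0.18. Of them, 1 was higher (1.35%) and 0 lower. All 646 other tested pseudogenes had a median of 0.08, and of 0.15 without replicate 3 of both groups. Of these, 15 were higher (2.32%) and 13 lower, against 1.1% and 2.71% of all genes. They were set apart by symbol alone. Copies of ribosomal protein genes under other symbols, such as Gm10154 and Gm4705, are therefore among them. By their medians and with no test, the ribosomal protein pseudogenes lay nearer to the ribosomal protein genes than to either of these lists. Dmp1-Cre;Setd2fl/fl replicate 2 had the highest summed level of the 60, 1809 CPM, against 1391 and 1352 CPM in replicates 1 and 3 and 1032 to 1047 CPM in control libraries. The same library had the highest sum of the cytosolic ribosomal protein genes, 74410 CPM, against 54330 and 51310 CPM in the other 2 and 46560 to 47790 CPM in control libraries.

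**Figure D2:**
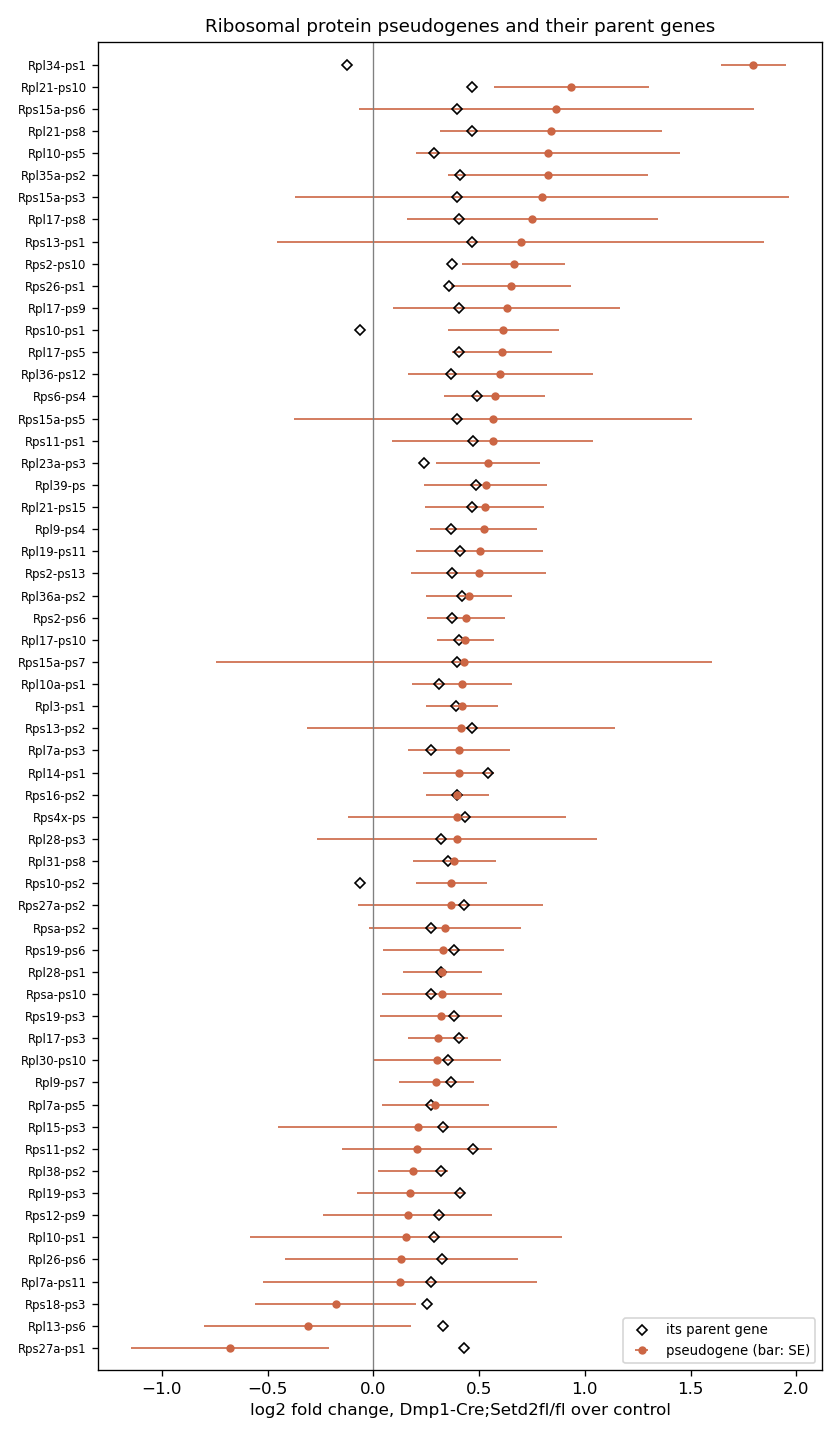
Log2 fold change of each of the 59 tested pseudogenes, Dmp1-Cre;Setd2fl/fl over control, as filled points with their SE, with the value of the parent gene as an open diamond. Most points lie between 0 and 1 close to the diamond of the parent, while Rpl34-ps1 lies at 1.80 with its parent at -0.12.

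Of the 5 pseudogenes with the most counts, Rpl34-ps1 is described above. Rps10-ps2 had 2763, 2762 and 2694 counts in control and 3803, 4505 and 2827 in Dmp1-Cre;Setd2fl/fl libraries, a log2 fold change of 0.37 (SE 0.17), and of 0.18 without Dmp1-Cre;Setd2fl/fl replicate 2. Rps10, the small-subunit gene it copies, had only 70, 68 and 121 counts in control and 65, 70 and 124 in Dmp1-Cre;Setd2fl/fl libraries. The pseudogene thus held 95.7% to 98.5% of the counts on the pair in every library. Rpl14-ps1 had 2113, 2113 and 2219 counts in control and 2907, 3645 and 2387 in Dmp1-Cre;Setd2fl/fl libraries, a log2 fold change of 0.40 (SE 0.17), and of 0.21 without Dmp1-Cre;Setd2fl/fl replicate 2. Trpm4, on the opposite strand at that site, was at -0.14 (SE 0.33). Rpl31-ps8, with no mismatch to Rpl31, had 1808, 1700 and 1406 counts in control and 2300, 2788 and 1620 in Dmp1-Cre;Setd2fl/fl libraries, so that the groups overlapped. Rpl17-ps3 had 1398, 1571 and 1420 counts in control and 1667, 2091 and 1892 in Dmp1-Cre;Setd2fl/fl libraries. In CPM its groups overlapped, at 74.2 to 82.7 in control and 79.7 to 111 in Dmp1-Cre;Setd2fl/fl libraries.

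Relative to its parent, the median pseudogene held 0.699% of the counts on the pair. For 34 of the 60 the share was under 1%, for 10 it was over 10%, and 2 pseudogenes had more counts than their parents. In the deposited positions 25 of the 60 lie within another gene's span, 20 of them within a protein-coding gene, and 35 lie in none. Where counts ignore strand, reads from the gene around a pseudogene cannot be told apart from its own.

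**Figure D3:**
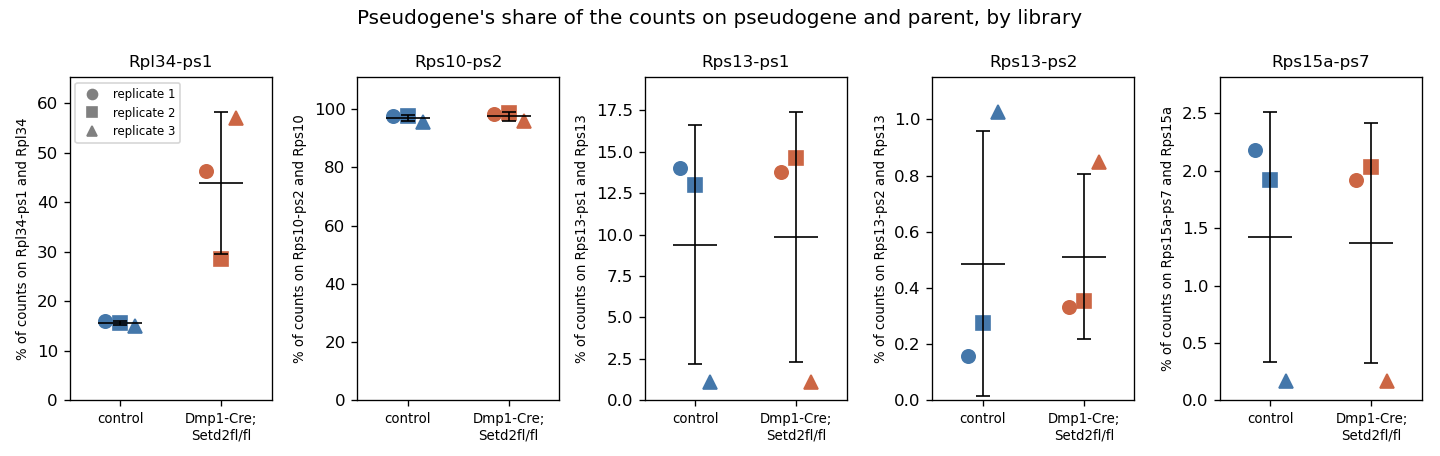
Share of the counts on pseudogene and parent that fell on the pseudogene, in percent, for 5 pairs in each library, with the mean and SD of 3 libraries per genotype as bars and the replicate number as the symbol. Rpl34-ps1 separates the genotypes, Rps10-ps2 holds over 95% in every library, and Rps13-ps1, Rps13-ps2 and Rps15a-ps7 separate replicate 3 of both genotypes from the other libraries.

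A second pattern in these pseudogenes did not follow genotype. Rps13-ps1 had 822 and 757 counts in control replicates 1 and 2 and 57 in replicate 3, and 1152 and 1542 counts in Dmp1-Cre;Setd2fl/fl replicates 1 and 2 and 68 in replicate 3. Both replicate 3 libraries were thus far below the other 4, in either genotype. Its parent Rps13 had 5031, 5063 and 5203 counts in control and 7196, 9020 and 5949 in Dmp1-Cre;Setd2fl/fl libraries, with no such gap. The share of Rps13-ps1 in the pair was 13.0% to 14.6% in the 4 libraries of replicates 1 and 2, 1.08% (0.837 to 1.40%) in control replicate 3 and 1.13% (0.893 to 1.43%) in Dmp1-Cre;Setd2fl/fl replicate 3.

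The 4 Rps15a copies showed the same gap. Rps15a-ps7 had 226, 191 and 12 counts in control and 253, 336 and 13 in Dmp1-Cre;Setd2fl/fl libraries. Rps15a-ps3 had 74, 84 and 4 counts in control and 123, 165 and 6 in Dmp1-Cre;Setd2fl/fl libraries. Rps15a-ps6 had 28, 33 and 5 counts in control and 40, 80 and 5 in Dmp1-Cre;Setd2fl/fl libraries. In all 3 copies both replicate 3 libraries were the lowest.

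Rps15a-ps5, the least counted of the 4, had 24, 17 and 1 counts in control and 25, 36 and 4 in Dmp1-Cre;Setd2fl/fl libraries. Rps15a itself had 10152, 9759 and 6937 counts in control and 12943, 16198 and 7803 in Dmp1-Cre;Setd2fl/fl libraries, a much smaller difference. The copies lie on chromosomes 2, 4, 5 and 11 and share with each other the base T150C shown above. Rps13-ps2, whose sequence has no mismatch to Rps13, went the other way, with 8, 14 and 54 counts in control and 24, 32 and 51 in Dmp1-Cre;Setd2fl/fl libraries.

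As a measure over all genes, the log2 CPM of replicate 3 was set against the mean of replicates 1 and 2 in each group. Replicate 3 was at least 4-fold lower in both groups for 5 of the 59 pseudogenes (8.47%), against 0.418% of all genes. These were Rps13-ps1 and the 4 Rps15a copies. Replicate 3 was at least 4-fold higher for 0, against 0.454%. The 4 Rps15a copies have the same parent and share T150C, so they cannot be taken as separate cases beside a share of all genes. Rps15a-ps5 and Rps15a-ps6 had only 1 to 5 counts in the replicate 3 libraries. For Rps13-ps1 the difference was -3.64 in control and -4.14 in Dmp1-Cre;Setd2fl/fl libraries. With a limit of 2-fold, 6 pseudogenes were lower, the sixth being Rpl21-ps8, and 5 were higher, against 2.25% and 2.57% of all genes. None of the 79 cytosolic ribosomal protein genes passed the 4-fold limit (0 genes). This measure was chosen after the data were seen and has no test. The summed dental epithelium markers given above were also far apart between replicate 3 and the other libraries. By the 4-fold limit, 2 of these 6 markers were higher in replicate 3 of both groups. Of the 4 neutrophil markers tested, 2 were lower by the same limit, with sums of 2.89 and 3.75 CPM in replicate 3. The part of either list in this pattern was not tested.

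**Figure D4:**
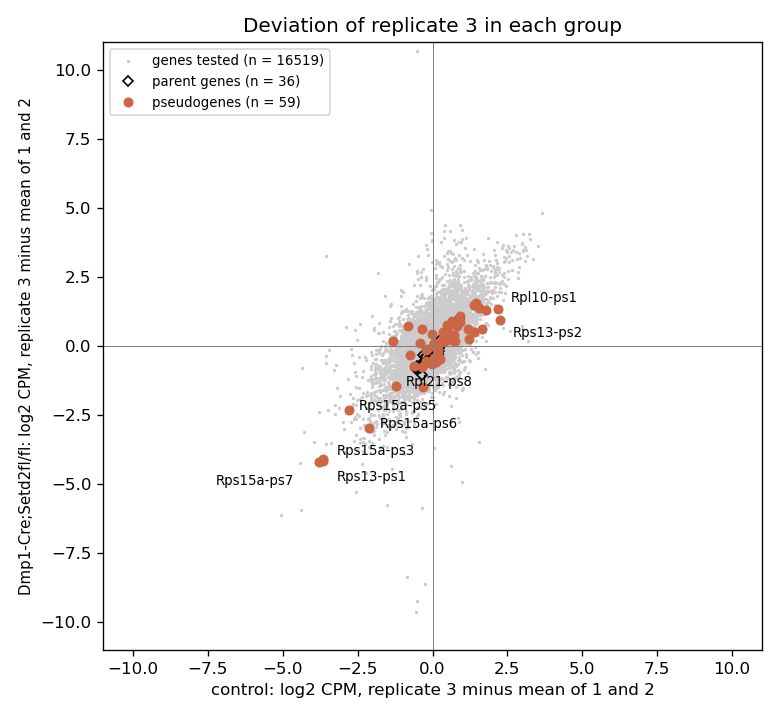
Difference in log2 CPM between replicate 3 and the mean of replicates 1 and 2, in control libraries (horizontal) and in Dmp1-Cre;Setd2fl/fl libraries (vertical), for all 16519 genes tested (grey), the 36 parents (open diamonds) and the 59 pseudogenes (filled points). Rps13-ps1 and the 4 Rps15a copies lie at or below -2 on both axes, while no parent does.

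The same 5 pseudogenes had the largest errors in the genotype comparison. Their SEs on the log2 fold change ran from 0.93 to 1.17, and the highest among the other 54 was 0.74. Rps13-ps1 had a log2 fold change of 0.70 (SE 1.15) over all 6 libraries and of 0.72, with an unadjusted p of 0.00238 by edgeR, without replicate 3 of both groups. The controls left were then replicates 1 and 2, which were closer to each other than any other pair of libraries. Their counts had a chi-square per degree of freedom of 6.17, against 33.6 to 261 for the other pairs. Calls and p-values without replicate 3 rest on these close controls. With replicate 3 left out, 17 pseudogenes were higher and 1 was lower at the study's thresholds, and all 4 that passed with 6 libraries were among the 17. Of all genes then tested, 4.49% were higher and 7.55% lower. The 1 lower was Rps27a-ps1, chosen after its values were seen, with 25, 14 and 9 counts in control and 9, 8 and 14 in Dmp1-Cre;Setd2fl/fl libraries and a log2 fold change of -0.68 (SE 0.47) with all of them. Among the parents 4 were then higher and 0 lower.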

How the data were processed

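RNA of mouse dental papilla cells was sequenced as 6 libraries, 3 per genotype, with paired-end reads of 150 bases. The deposited table holds whole-number counts per gene, which the authors made with HISAT2 and HTSeq, counted without regard to strand and above a minimum alignment quality. Bowtie2, DESeq2 and GRCm39 are further named in the notes of the submitters. The other value columns are the authors' own comparison, deposited as a mean normalized signal, a ratio of the groups on a linear and on a log2 scale, and p-values, and none of them was used. All count columns were matched to a sample (0 left over). Deposited gene positions lay within 5000 bases of the GRCm38.p6 RefSeq start for 93.8% of 24516 shared symbols, and of the GRCm39 GENCODE vM39 start for 4.44% of 30436. They were therefore read as GRCm38, and sequences were taken by gene identifier from the GENCODE vM39 transcripts (GRCm39), never by position.

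The main test was the robust quasi-likelihood F test of edgeR 4.0.16 (R 4.3.3) after TMM scaling, on the 16519 genes that passed filterByExpr at a minimum count of 10, with Benjamini-Hochberg adjustment over them. CPM values were scaled by TMM, and a prior count of 2 was added for log2 CPM values and log2 ratios. A call needs the study's thresholds, p under 0.05 before adjustment and at least 0.58 in size on the log2 scale. The fits were tested on simulated data. These were independent counts with differences between genotypes only, so they do not cover the deviation of replicate 3 in both groups. Pseudogene transcripts were aligned to the parent transcript with Biopython 1.88. Intervals on shares are 95% Wilson intervals. They cover counting error only, as do all statements on depth, since reads carried no molecular identifiers.

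The members and all gene lists were chosen with earlier results of these data known. Named genes were Rpl34-ps1, each member past the study's thresholds, the 5 members with the most counts, the 3 just inside and the 3 just outside the minimum, their parents, genes overlapping them, and Setd2. Other genes are marked as chosen after their values were seen. Alternatives were DESeq2 1.42.0, voom of limma 3.58.1 with quality weights, other scalings, filters and thresholds, the replicate block, and libraries left out. Libraries 1, 2 and 3 deviated from their group's mean together with the library of the same number in the other group, with correlations over genes of 0.453, 0.465 and 0.663, so the numbers given in the labels were taken to pair the libraries, although control replicate 2 and Dmp1-Cre;Setd2fl/fl replicate 1 also correlated at 0.455.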

Additional observations from a re-analysis of the deposited data

How the results depend on the processing

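With edgeR on all 6 libraries, 181 genes were higher and 448 lower at the study's thresholds, 4 pseudogenes were higher and 0 lower, and 0 parents passed in either direction. At an adjusted p under 0.05 these counts were 0 throughout. DESeq2 called 273 genes higher. Voom with quality weights called 444 higher and 1101 lower, with 9 pseudogenes higher and 1 lower. Library totals without TMM called 275 higher, with 8 pseudogenes and 1 parent, and no filter on low counts called 338 higher. The replicate block, which pairs libraries by number, called 339 genes higher and 722 lower, with 12 pseudogenes higher, and changed no call among the parents. Leaving out single libraries gave 83 to 677 genes higher and 282 to 1161 lower, with the lowest counts without Dmp1-Cre;Setd2fl/fl replicate 2 and the highest without Dmp1-Cre;Setd2fl/fl replicate 3. Between 1 and 12 pseudogenes were then higher and 0 lower. The 12 of 59 came without control replicate 3, where 270 of 16935 genes were higher. Of the 36 parents, 0 to 9 were higher and 0 to 1 lower (Rpl34, without Dmp1-Cre;Setd2fl/fl replicate 2). The 9 came without Dmp1-Cre;Setd2fl/fl replicate 3, where 677 of 16865 genes were higher. Leaving out replicate 3 of both groups kept control replicates 1 and 2, the closest pair of libraries, as the only controls. Then 750 genes, 17 pseudogenes and 4 parents were higher, and 1261 genes and 1 pseudogene lower. The cause was not tested.

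The log2 fold change of Rpl34-ps1 kept its direction and its side of the study's thresholds under every alternative fitted. These fits used the libraries by which it was chosen, so they are a description. Rpl34-ps1 did not reach an adjusted p under 0.05 in the main edgeR fit (0.12). The genotype difference in its log2 ratio to Rpl34 moved by less than the larger group SD when single libraries were left out or the prior count was 0.5. That SD is wide, with ratios of -0.21, -1.32 and 0.40 in Dmp1-Cre;Setd2fl/fl replicates 1, 2 and 3. Among the log2 fold changes of single genes, 6 turned sign. Rpl34 ran from -0.626 to 0.162 over single libraries left out and was 0.0612 without replicate 3 of both groups. Rps10 ran from -0.468 to 0.302 and was 0.0052 with library totals. Over single libraries left out, Rps18-ps3 ran from -0.482 to 0.033, Rps4x-ps from -0.0202 to 0.777, Trpm4 from -0.544 to 0.117, and 6030443J06Rik from -0.381 to 0.0117. Of the ratios to the parent, those of Rpl31-ps8, Rpl17-ps3 and Rps4x-ps turned sign when single libraries were left out, and the median over all genes was -0.004 with no filter on low counts and -0.0118 without Dmp1-Cre;Setd2fl/fl replicate 3. The median over the pseudogenes, tried under the same settings after the data were seen, ran from 0.29 without Dmp1-Cre;Setd2fl/fl replicate 2 to 0.55 without Dmp1-Cre;Setd2fl/fl replicate 1. Counts on near-identical copies depend on how reads were assigned, which the counts alone cannot show, and copies with few counts in a library are limited by depth.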
